A study of Mus musculus with 24 samples.

Results

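The regions described here were open in forelimb cartilage and in none of the jaw lists of the same series. ATAC-seq, in which a transposase cuts accessible DNA, gave 1 list of peaks for each of 3 libraries of forelimb cartilage (FL) and 3 of Meckel's cartilage (MC), the rod that shapes the lower jaw, from wild-type C57BL/6 mouse embryos at the embryonic stage E14.5, and for each of 2 libraries of the mandibular process, from which MC forms, at E12.5, also wild type. H3K27ac, a histone mark of active promoters and enhancers, was mapped by CUT&Tag in 3 FL and 3 MC libraries at E14.5. The forelimb cartilage was freed of connective tissue by dissection before digestion, and the labels call the cells chondrocytes but do not say whether replicates came from separate animals or litters. The peaks of the 8 ATAC lists on the autosomes and X were merged into 157342 regions, and a region was called FL-alone when at least 2 of the 3 FL lists and none of the 5 jaw lists had a peak there. This gave 6144 regions, 3.90% of all regions and 13.4% of the 45807 regions with a peak in at least 2 FL lists. These lists chose the regions, so the presence, number and scores of their peaks are a description.

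Distal open regions that differ between tissues often act as enhancers, which bind transcription factors and raise transcription of a gene that can lie far away. Limb and jaw cartilage form the same tissue from different sources: limb chondrocytes come from lateral plate mesoderm, and those of Meckel's cartilage from cranial neural crest. Genes of the 5′ HoxA and HoxD clusters pattern the limb along its axis from shoulder to digits, while the neural crest of the mandibular arch expresses none of the Hox genes. Signals of the BMP, FGF and hedgehog families then set the growth of the limb bud and the place of its joints.

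A few FL-alone regions lay over the start of an annotated transcript, and the reference bases of 8 such starts (RefSeq, GRCm38.p6, the assembly of mm10) are shown because they tie a region to a gene without a choice of nearest gene. Each window runs 5′ to 3′ on the strand of the gene, from 250 bases before the start to 50 after it. The first 3 are Hox genes, 4933400C23Rik and Akr1b8 lie under the FL-alone regions with the best worst rank among those in 3 FL lists over a start, and Mef2c, Gbp2 and Rsad2 were chosen after their values were seen. Capitals mark matches on either strand to 17 short motifs, overlaps between motifs allowed. For cartilage and growth plate factors these were ACAATGG of the SOX family and TGTGGTT of the RUNX family. For homeobox factors the letters TTTATNG stood for posterior HOX proteins, CAATAAA for the paralogues numbered 13, TAATTA for homeodomains at large and TGACAG for the MEIS family. Signalling was searched by GGGTGGT for GLI proteins, CTTTGAN for LEF and TCF proteins and CATTCCA for TEAD proteins. Others were TGANTCA for the AP-1 complex, AGGTGTG for T-box proteins, CATCTG for the first and CAGCTG for the second of the E-boxes, TTGGCA for an NFI site in part, CCGGAAG for the ETS family, AGGGGGC for the core of a CTCF site and AGATAAG for the GATA family.
Hoxd10 (chr2:74691641-74691940, strand +): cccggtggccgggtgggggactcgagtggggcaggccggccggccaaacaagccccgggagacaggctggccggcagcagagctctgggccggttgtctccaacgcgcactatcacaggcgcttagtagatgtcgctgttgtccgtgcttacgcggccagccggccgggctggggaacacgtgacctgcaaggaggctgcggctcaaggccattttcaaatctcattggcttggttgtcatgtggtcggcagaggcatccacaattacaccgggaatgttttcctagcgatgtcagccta
Hoxd3 (chr2:74711743-74712042, strand +): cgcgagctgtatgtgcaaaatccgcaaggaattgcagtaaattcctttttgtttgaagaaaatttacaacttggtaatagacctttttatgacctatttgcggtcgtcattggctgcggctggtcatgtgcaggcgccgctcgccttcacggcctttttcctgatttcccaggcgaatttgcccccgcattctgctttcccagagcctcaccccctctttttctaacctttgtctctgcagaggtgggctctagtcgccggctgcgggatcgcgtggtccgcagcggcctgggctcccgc
Hoxa5 (chr6:52204538-52204837, strand -): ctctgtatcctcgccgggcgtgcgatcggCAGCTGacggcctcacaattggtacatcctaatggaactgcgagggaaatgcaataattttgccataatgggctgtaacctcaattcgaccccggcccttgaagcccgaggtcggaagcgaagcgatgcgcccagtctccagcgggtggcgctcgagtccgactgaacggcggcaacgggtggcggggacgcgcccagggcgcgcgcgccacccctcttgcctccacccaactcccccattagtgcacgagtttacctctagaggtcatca
Akr1b8 (chr6:34353896-34354195, strand +): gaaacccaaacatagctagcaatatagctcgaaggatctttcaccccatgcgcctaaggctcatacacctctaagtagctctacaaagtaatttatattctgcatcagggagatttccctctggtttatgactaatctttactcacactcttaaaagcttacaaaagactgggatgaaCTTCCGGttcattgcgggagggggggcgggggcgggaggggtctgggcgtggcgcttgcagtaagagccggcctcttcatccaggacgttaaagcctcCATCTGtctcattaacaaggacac
4933400C23Rik (chr9:92718466-92718765, strand +): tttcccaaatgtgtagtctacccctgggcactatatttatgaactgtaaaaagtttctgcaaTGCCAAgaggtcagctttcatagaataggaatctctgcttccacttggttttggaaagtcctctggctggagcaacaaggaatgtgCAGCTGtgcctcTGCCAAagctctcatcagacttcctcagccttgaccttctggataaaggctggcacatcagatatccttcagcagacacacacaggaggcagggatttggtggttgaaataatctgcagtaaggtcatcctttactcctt
Mef2c (chr13:83503784-83504083, strand +): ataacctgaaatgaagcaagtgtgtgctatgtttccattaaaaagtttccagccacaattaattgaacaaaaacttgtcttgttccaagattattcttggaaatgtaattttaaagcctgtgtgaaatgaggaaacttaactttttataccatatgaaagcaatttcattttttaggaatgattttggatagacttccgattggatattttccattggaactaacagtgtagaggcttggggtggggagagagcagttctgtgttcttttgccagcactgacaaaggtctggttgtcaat
Gbp2 (chr3:142620413-142620712, strand +): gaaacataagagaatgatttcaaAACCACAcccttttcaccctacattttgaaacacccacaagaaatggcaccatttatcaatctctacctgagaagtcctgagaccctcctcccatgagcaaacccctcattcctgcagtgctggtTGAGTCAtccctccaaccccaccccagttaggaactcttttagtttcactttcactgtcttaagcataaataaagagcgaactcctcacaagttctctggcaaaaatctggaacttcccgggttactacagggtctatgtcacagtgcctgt
Rsad2 (chr12:26456403-26456702, strand -): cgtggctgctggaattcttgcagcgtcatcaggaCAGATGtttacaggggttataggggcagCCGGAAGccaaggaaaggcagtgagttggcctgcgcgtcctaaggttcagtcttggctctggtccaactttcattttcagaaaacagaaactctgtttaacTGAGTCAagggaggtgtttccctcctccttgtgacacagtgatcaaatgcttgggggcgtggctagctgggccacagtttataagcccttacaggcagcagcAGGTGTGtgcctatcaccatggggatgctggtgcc

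No motif of the 17 was present in the Hoxd10, Hoxd3 and Mef2c windows, and a match or its absence says nothing about binding. The Akr1b8 window held an ETS and an E-box match, the Gbp2 window a RUNX and an AP-1 match, and the Rsad2 window matches for AP-1, T-box, E-box and ETS.

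Marker promoters were checked in each list before the regions were described. Of 18 cartilage genes with a promoter window, 13 had a peak there in each FL list and 13 or 14 in the MC lists. Of 10 posterior Hox genes with a window, 3, 9 and 6 were open in FL replicates 1, 2 and 3, against 0, 2 and 1 in MC and 6 and 2 at E12.5. Promoters of other cell types were open in part. Skeletal muscle had 10, 8 and 5 of 19 in FL and 6, 6 and 7 in MC, endothelium 6, 9 and 7 of 12 and 6, 6 and 8, blood 3, 4 and 2 of 15 and 2, 4 and 2, epithelium 2, 5 and 4 of 12 and 2, 5 and 5, and neuron and Schwann cell 6, 8 and 6 of 11 and 4, 7 and 8. In such bulk lists a region open in few cells and one weakly open in many cannot be told apart. The lists were of unequal length, with 56039, 70636 and 47152 peaks in FL, 54192, 43205 and 49872 in MC and 74706 and 70042 at E12.5, and the read depth behind them is unknown.

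FL-alone regions were narrow and of modest rank. Their median width was 734 bp, against 782 bp for all regions, 841 bp for the 1104 regions chosen by the mirror rule for MC (MC-alone, 3.00% of the regions in at least 2 MC lists) and 2010 bp for the 15788 regions open in all 8 lists. The authors' peak score put their peaks at median percentiles of 38.4, 40.3 and 29.6 within FL lists 1, 2 and 3. The 1595 regions present in all 3 FL lists ranked higher, at 48.3, 53.1 and 36.8, and distal regions of all 8 lists stood at 76.3, 81.9 and 73.1.

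**Figure D1:**
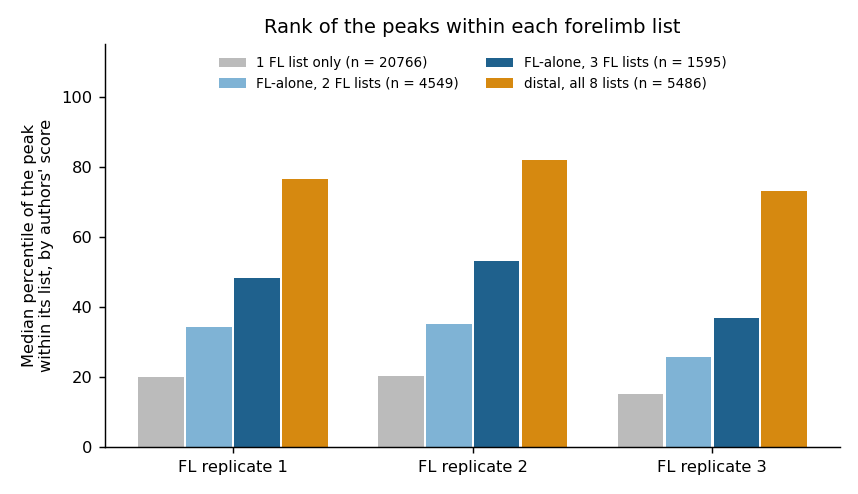
Median percentile of the peak (vertical axis, 0 to 100, by the authors' score within the list) in each of the 3 forelimb ATAC lists (horizontal axis), for 4 classes of region. In each list the FL-alone regions present in 3 lists stand above those in 2 lists, and both stand below distal regions open in all 8 lists.

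Most FL-alone regions rested on 2 lists. Replicates 1 and 2 shared 2367 (38.5%), replicates 2 and 3 shared 1668 (27.2%), replicates 1 and 3 shared 514 (8.37%), and 1595 (26.0%) were in all 3. The longest list, replicate 2, held 5630 of the 6144 (91.6%). With both remaining FL lists required, 3286 regions were left without FL replicate 1, 2112 without FL replicate 2 and 4008 without FL replicate 3. With the 43205 best peaks of every list by the authors' -log10 p there were 4157 FL-alone and 1839 MC-alone regions, and with all peaks 6144 and 1104. Of the 6144, only 3076 overlapped an FL-alone region of these equal lists. Just outside the rule lay 20766 regions with a peak in 1 FL list and no jaw list, with median percentiles of 19.9, 20.3 and 15.0, and 2496 that missed because of 1 MC list and 2867 because of 1 E12.5 list. The authors' combined FL list, called on the pooled FL data, held 96.9% of the regions in 3 lists and 51.7% of those in 2, and their combined MC and E12.5 lists held 3 and 10 of the 6144.

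A list that took no part in the choice shows how far the class repeats. Regions chosen as FL-alone from the other 7 lists had a peak in the FL list left out in 48.9% of cases for replicate 1 (95% Wilson interval 47.2 to 50.6, counting error only), 75.6% for replicate 2 and 40.3% for replicate 3. When an MC list was left out, 12.2%, 9.17% and 14.3% of the regions chosen had a peak in it, and for the E12.5 lists the shares were 5.80% and 28.8%. Over all regions in at least 2 of the FL lists used, the same shares were 81.2%, 94.4% and 78.2% for FL, 60.5%, 63.2% and 69.8% for MC and 48.6% and 72.0% for E12.5. Each FL share lay above each jaw share, and 2 of the 3 FL shares were under 50%. The sets share lists, so no test was made.

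**Figure D2:**
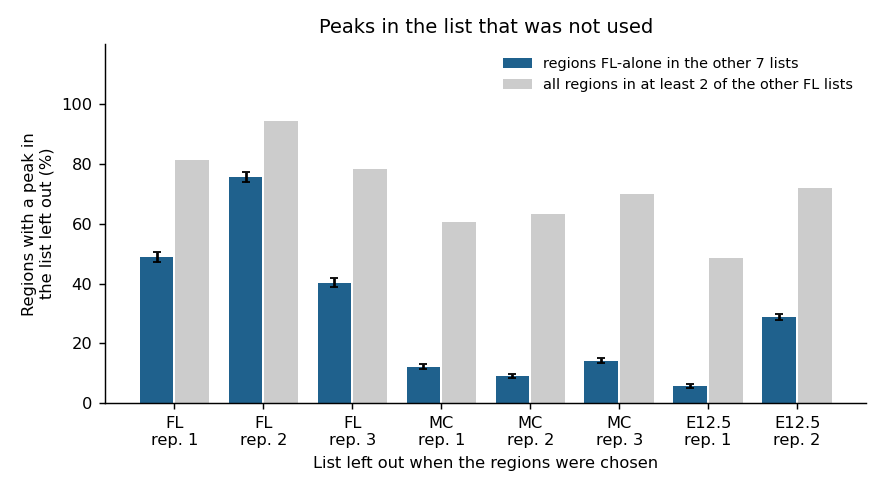
Percent of regions with a peak in the list left out (vertical axis) for each of the 8 ATAC lists (horizontal axis), with 95% Wilson intervals on the dark bars. Dark bars, regions FL-alone in the other 7 lists; grey bars, all regions in at least 2 of the FL lists used. The 3 FL lists held 40.3% to 75.6% of such regions and the 5 jaw lists 5.80% to 28.8%.

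H3K27ac was not used to choose the regions. In the authors' combined FL list 2560 of the 6144 regions (41.7%, 95% Wilson interval 40.4 to 42.9) lay under an H3K27ac peak, and in the combined MC list 2323 (37.8%, 36.6 to 39.0). Over all regions these shares were 55.4% and 55.5%, so FL-alone regions carried the mark less often than open regions at large in both tissues. The mark was in FL and not MC at 762 FL-alone regions (12.4%, 11.6 to 13.3) and in MC and not FL at 525 (8.55%, 7.87 to 9.27), against 9.18% and 9.26% of all regions. Both lists marked 1798 (29.3%, against 46.2% of all regions) and neither marked 3059 (49.8%, against 35.3%). The FL share exceeded the MC share by 3.86 points at FL-alone regions, by 5.58 points at those in all 3 FL lists and by 2.28 points at regions in a single FL list, while at MC-alone regions it was 6.79 points below the MC share. Among MC-alone regions 6.61% were marked in FL and not MC and 13.4% in MC and not FL. Distal regions of all 8 lists also leaned to MC, with 3.45% and 10.5%. The combined lists are pooled, so these differences have no replicate test and the intervals cover counting error only. The combined FL list covered 454.4 Mb with a median peak width of 7356 bp, and the MC list 407.7 Mb with 5511 bp. Peaks over FL-alone regions had median widths of 10.67 kb in FL and 8.185 kb in MC, so a mark need not be local to the region. Whether peak width gave the FL minus MC difference was not tested.

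**Figure D3:**
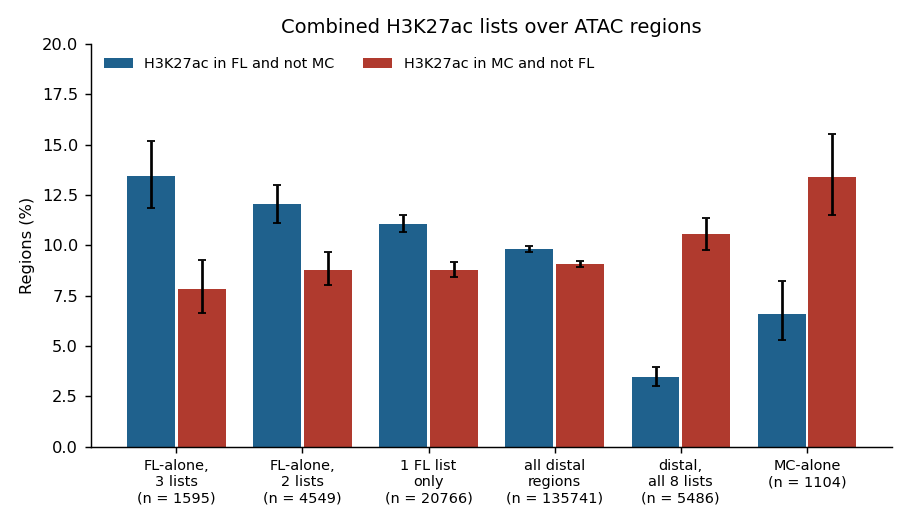
Percent of regions (vertical axis) with a combined H3K27ac peak in FL and not MC (blue) or in MC and not FL (red), for 6 classes of ATAC region (horizontal axis), with 95% Wilson intervals. The FL bar is higher in both FL-alone classes (13.4% and 7.84% for 3 lists) and the MC bar in MC-alone regions (6.61% and 13.4%).

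Lists of single H3K27ac libraries gave no such difference. A peak lay over 2.39%, 1.99% and 2.60% of FL-alone regions in the FL libraries and over 2.44%, 3.29% and 2.88% in the MC libraries, with means of 2.33% ± 0.314 in FL and 2.87% ± 0.424 in MC (SD, n = 3 in both tissues). The groups overlapped (exact permutation p = 0.2, two-sided, and the smallest p that 3 against 3 libraries allow in an exact permutation test is 0.1). Less the share of all regions in the same list, the values were -1.196 ± 0.478 points in FL and -0.920 ± 0.00907 in MC (exact permutation p = 0.4). Less the share of MC-alone regions, they were -0.601 ± 0.351 and -0.270 ± 0.357 (exact permutation p = 0.3). Adjusted over these 3 tests each exact permutation p was 0.4. The single lists held 68477 to 75531 peaks with a median highest signal of 2 and touched 10.3% ± 1.11 (FL) and 9.91% ± 1.55 (MC; SD, n = 3 in both) of the regions open in all 8 ATAC lists, of which the combined lists marked 79.1% and 87.95%. These p-values measure the spread between libraries, which may be technical.

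FL-alone regions lay away from protein-coding genes, the only genes whose spans were used here. A gene end was within 1 kb of 151 (2.46%), against 13.7% of all regions and 3.53% of MC-alone regions. Inside a gene span lay 2777 (45.2%, against 56.9%). Over 100 kb from any protein-coding gene were 1494 (24.3%), against 11.95% of all regions and 12.3% of MC-alone regions. Regions in 1 FL list and no jaw list had a gene end within 1 kb in 3.217% of cases. Those that missed because of 1 MC list or 1 E12.5 list had it in 3.285% and 5.476%. Over 100 kb away were 19.14%, 18.91% and 19.15% of these classes, so regions just outside the rule shared much of this trait. Exons and introns could not be separated with the gene spans used here. The median gap between neighbouring FL-alone regions was 187 kb, and 232 of 6124 gaps were under 5 kb. A peak of some jaw list was within 1 kb of 894 (14.6%) and within 5 kb of 2689 (43.8%). The same shares at other positions were not counted, so these values do not set the class apart.

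Each region was assigned to the protein-coding gene span that held its centre, or else to the nearest protein-coding gene within 1 Mb. That gene need not be the one it acts on. This gave 3232 genes with an FL-alone region, 18.4% of the 17587 genes with any region. Of these, 1888 had 1, 644 had 2 and 202 had at least 5. The H3K27ac counts given below by gene or list stand beside shares over all FL-alone regions of 41.7% in FL, 37.8% in MC and 12.4% in FL and not MC.

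In the HoxD and HoxA clusters FL-alone regions lay at both 5′ and 3′ genes. Hoxd10, a homeobox gene of the 5′ HoxD cluster that patterns the limb, had a region over its start (chr2:74690979-74692114) with scores of 523, 874 and 488 in FL replicates 1 to 3. Hoxd11, which shapes the forearm, had one inside its span (chr2:74686274-74686754) with scores of 385, 256 and 201. All 3 FL lists had both, and both lay under FL and not MC H3K27ac. At Hoxd3, Hoxa3 and Hoxa5, which lie further 3′, 4 regions were each in FL replicates 1 and 2 alone and under no H3K27ac peak. Hoxd3 had 2 of them (chr2:74711633-74712647, scores 369 and 682, and chr2:74749270-74750164, scores 584 and 472), and Hoxa3 and Hoxa5 (chr6:52204262-52204793, scores 265 and 358) had 1 each.

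The E12.5 lists kept most posterior Hox regions that had no MC peak out of the class. Of the 14 regions in at least 2 FL lists nearest to posterior Hox genes, 9 had no MC peak, and 7 of those 9 were left out because 1 of the 2 E12.5 lists had a peak. These lay at Hoxa9, Hoxa10, Hoxd8, Hoxd12 and Hoxd13, with chr6:52232969-52235395 at Hoxa10 in all 3 FL lists. Over the genome, 2867 regions in at least 2 FL lists without an MC peak missed the class through 1 E12.5 list, beside the 6144 in it. FL and not MC H3K27ac covered 10 of the 14, against 9.18% of all regions. From equal numbers of peaks per list 7 of 12 such regions were FL-alone (58.3%, against 11.5% of all regions in at least 2 FL lists), with Hoxa9, Hoxa10 and Hoxd13 among the genes. Without E12.5 replicate 1 the share was 42.9% (against 14.3%) and without E12.5 replicate 2 it was 35.7% (against 18.9%), where all lists gave 14.3% (against 13.4%). Leaving out an MC list kept it at 14.3% in each case.

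Of 38 limb patterning genes 24 had an FL-alone region (63.2%, against 18.4% of genes at large), 50 regions in all. Genes with many open regions have more chances to hold one: among regions in at least 2 FL lists nearest to these genes 50 of 287 were FL-alone (17.4%, Wilson interval 13.5 to 22.2), against 13.4% over the genome. Without FL replicate 2, 12 of the genes had one, and 15 without FL replicate 1.

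T-box genes of the limb list had 8 FL-alone regions, of which 4 were under FL and not MC H3K27ac: both at Tbx5, that at Tbx2 and 1 of 3 at Tbx15, while those at Tbx3 and Tbx18 (1 each) were under neither. Tbx5, which starts the forelimb, had 2 regions inside its span, at chr5:119834562-119835650 and chr5:119867695-119868786, with scores of 574 and 357, and 504 and 545, in replicates 2 and 3. Neither had a peak in replicate 1, and both were under FL and not MC H3K27ac, as were 2 of the 4 other regions of Tbx5 in at least 2 FL lists. Shox2, a homeobox gene of the proximal limb, had 1 region 321 kb away (chr3:66649969-66651528) with scores of 1156, 1339 and 786, also under FL and not MC H3K27ac. Tbx15, which shapes the scapula, had 3, the strongest 105 kb away (chr3:99458999-99459805; 438, 934 and 719) without H3K27ac and 1 inside the gene with H3K27ac in FL and not MC. Sall3, a zinc-finger gene of the limb bud, had 4, of which 2 were marked in FL and not MC, and Tbx2 had 1, marked likewise (scores 217 and 260, replicates 1 and 2).

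At Hand2, Meis1, Fgf10 and Shh, regulators of the early limb bud put together for this outcome, the 12 FL-alone regions were without the mark in both tissues. Other limb patterning genes, such as Tbx5, Sall3, Gli3 and Prrx1, had marked ones. Hand2, which acts upstream of Shh in the posterior limb bud and also patterns the lower jaw, had 4 regions 36.7 to 226 kb away, 3 of them in all FL lists and none under H3K27ac in either tissue. The nearest (chr8:57360647-57361839) scored 505, 379 and 644. Meis1, of the proximal limb, had 5 at 71.8 to 357 kb, none marked. Fgf10, the mesenchymal signal that drives limb bud outgrowth, had 2, both in all 3 lists and neither marked: chr13:118551089-118552537, 163 kb away, with scores of 799, 823 and 851, and a weaker one (344, 288 and 289) 118 kb away. Shh itself, the posterior signal, had 1 region 319 kb away with scores of 476, 282 and 214, unmarked. Gli3, a transcription factor of the hedgehog pathway, had 3 of 31, and Prrx1, of limb mesenchyme, 2 of 6, and 1 at each of them was under H3K27ac in both tissues. The homeobox genes En1 and Isl1 had 2 each, none marked, but Isl1 stands in the neuron and Schwann cell list and not in this one. Of the 50 regions at limb patterning genes, 15 were under FL H3K27ac, 11 under MC H3K27ac and 8 under FL and not MC, so the examples at Tbx5 and Shox2 do not stand for the list.

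**Figure D4:**
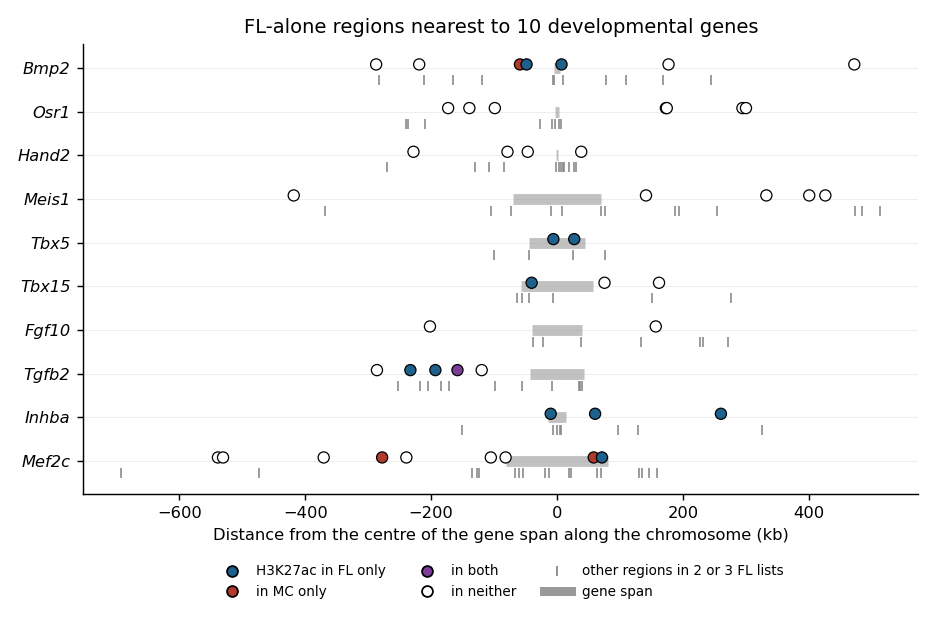
FL-alone regions (circles) and other regions in at least 2 FL lists (ticks) nearest to 10 developmental genes, by distance in kb of the region's centre from the centre of the gene span along the chromosome (horizontal axis); the grey bar is the gene span and the fill shows the combined H3K27ac lists over FL-alone regions. The 2 circles of Tbx5 and 3 of Inhba are filled for FL only, and the 7 of Osr1, 4 of Hand2, 5 of Meis1 and 2 of Fgf10 are open.

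Of 22 joint and BMP genes 13 had an FL-alone region (7 without FL replicate 2), with 37 of 165 regions in at least 2 FL lists (22.4%, Wilson interval 16.7 to 29.4, against 13.4%). Among ligands, Bmp2, which drives cartilage and bone formation, had 7, spread from 287 kb on one side to 472 kb on the other side of the gene's centre. Of these, chr2:133269635-133270755 scored 489, 909 and 410, and 2 at 1.84 and 43.0 kb from the gene were under FL and not MC H3K27ac. Bmp4 and Bmp5 had 2 each, and Bmp7 and Gdf6, of which Gdf6 marks joints, had 1 each. Receptor genes followed, with 5 at Bmpr1b and 4 at Acvr2a, 1 of which (chr2:48601432-48603395) scored 241, 684 and 1001. The antagonist genes Nog and Chrd had 1 and 2, and 1 at each of them was under FL and not MC H3K27ac. Osr1, a zinc-finger gene of joint and connective tissue, had 7, none of them under H3K27ac in either tissue, while 6 of the 8 other regions at this gene were under FL H3K27ac. Over the list, 12 of the 37 were marked in FL, 10 in MC and 4 in FL and not MC.

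Genes of the chondrocyte programme itself, which both cartilages use, had FL-alone regions at about the background share. Of 26 cartilage genes 7 had one, with 20 of 162 regions (12.4%, against 13.4%). Sox9, the master regulator of cartilage, had 1 of 11, at chr11:112697591-112698640, 84.1 kb from the gene, with scores of 716, 322 and 282 and H3K27ac in both tissues. Its partner Sox5 had 5 of 26, the strongest (chr6:143703490-143704890; 732, 327 and 682) under MC and not FL H3K27ac, and Sox6 had 1 of 19. Trps1, a zinc-finger gene of growth plate cartilage, had 6, each in 2 lists. Among matrix genes Col11a1 had 4 without H3K27ac and Acan 2 with H3K27ac in both tissues. Col2a1 had none. Genes of chondrocyte hypertrophy and bone formation, a list of their own, had 18 of 92 (19.6%, Wilson interval 12.8 to 28.8), with 1 under FL H3K27ac and 5 under MC. Among them Mef2c, a regulator of chondrocyte hypertrophy that also acts in other tissues, had 9 of 27, among them one at its annotated start printed above (chr13:83503629-83504194; scores 358 and 329 in replicates 1 and 2) and one 196 kb away with scores of 485, 1161 and 670. Runx2, which drives hypertrophy and bone formation, had 3 of 12, of which 2 were under MC and not FL H3K27ac.

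In the TGF-beta family the share was also at background (18 of 137, 13.1%). Of the 18, 12 were under FL H3K27ac, 6 under MC and 7 under FL and not MC, against 41.7%, 37.8% and 12.4% of all FL-alone regions. These came from few genes, with 5 at Tgfb2, 4 at Ltbp1 and 3 at Inhba, and the difference was not tested. Inhba, a subunit of activin, had 3, at scores of 205 to 454, all under FL and not MC H3K27ac. Fst, an activin antagonist, had 1 (296, 559 and 681) and Tgfbr3, a co-receptor, 1 (735, 545 and 517), marked likewise. Tgfb2, a ligand, had 5 between 76.2 and 243 kb away, 2 of them marked in FL and not MC. In the FGF pathway 17 of 100 (17.0%) were FL-alone, with 12 under FL H3K27ac, 12 under MC and 3 under FL and not MC. Of those 3, 2 were at Spry2, a feedback inhibitor of FGF signalling, one of them at chr14:105992875-105993818 with scores of 720, 732 and 614. Wnt genes had 26 of 218 (11.9%), hedgehog genes 14 of 156 (8.97%) and retinoic acid genes 8 of 79 (10.1%). Mandibular and neural crest genes had 31 of 224 (13.8%), so the share at jaw genes was near the background.

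Lists of other cell types were read the same way. Tendon genes had 15 of 72 (20.8%), with 9 under FL H3K27ac, 8 under MC and 3 under FL and not MC, of which 2 were at Mkx, a tendon homeobox gene. Neuron and Schwann cell genes had 14 of 57 (24.6%, 15.2 to 37.1), with none under FL H3K27ac and Syt1, a synaptic vesicle gene, leading with 4. Of the 14, 2 were at Isl1, named above beside the limb genes. Endothelial genes had 15 of 88 (17.0%), blood 8 of 62 (12.9%), skeletal muscle 4 of 53 (7.55%), epithelium 1 of 34 (2.94%) and reference genes 1 of 26 (3.85%). The part of tendon, nerve, vessel or blood cells in the FL-alone class was not tested. The counting intervals of the joint and BMP, limb patterning and neuron lists lay above 13.4%, for limb patterning only just (from 13.47%), and those of the other 16 lists took it in. The intervals count regions as independent, though Bmp2 and Osr1 gave 7 each of the 37 joint and BMP regions. Some genes stand in more than 1 list and no correction over lists was made, so this sorting is not a test. Over 12 settings, the joint and BMP, tendon, FGF and neuron lists stood above the share over all regions in 12, limb patterning, endothelium and hypertrophy in 11 and cartilage in 3.

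**Figure D5:**
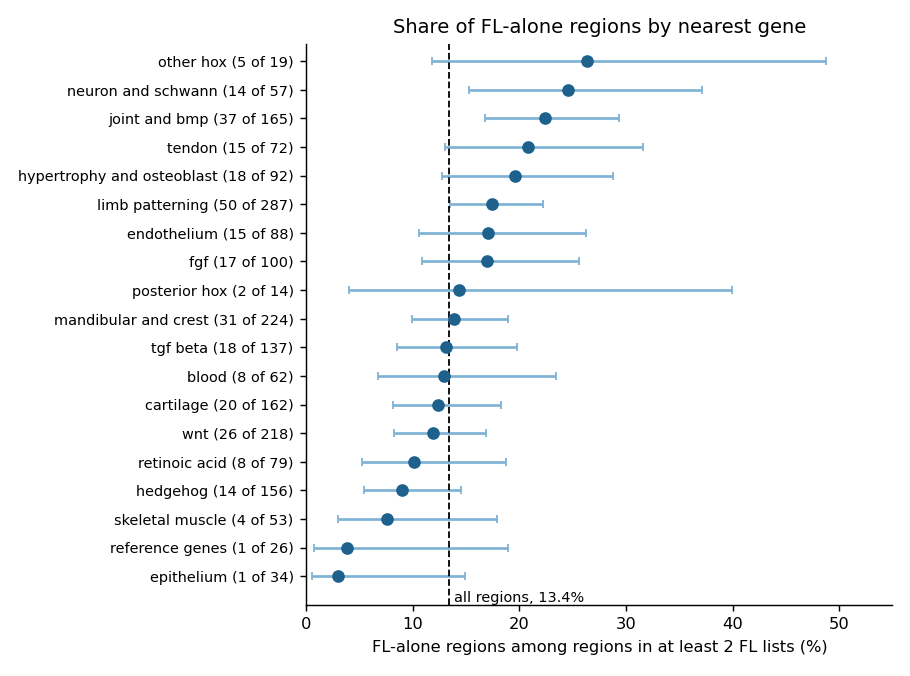
Percent of regions in at least 2 FL lists that were FL-alone (horizontal axis), by list of nearest genes (vertical axis, with counts), with 95% Wilson intervals for counting error. The dashed line is the share over all such regions, 13.4%. Joint and BMP (22.4%) and neuron and Schwann cell genes (24.6%) lie to its right, and epithelium (2.94%) and reference genes (3.85%) to its left.

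Few FL-alone regions of any rank were at genes of these lists, with at most 50 of the 6144 at any 1 list (limb patterning). None of the 12 regions of best worst rank lay nearest to a listed gene. The strongest lay at chr9:92717417-92719647, 110 kb from Plod2, a collagen-modifying enzyme, over the start of the noncoding transcript 4933400C23Rik printed above, with scores of 2705, 1518 and 1640 and H3K27ac in both tissues. By worst rank over the 3 lists, next came a region 32.9 kb from Gbp5, an interferon-induced GTPase (chr3:142463008-142464988; 1691, 1099 and 1546), under FL and not MC H3K27ac. It was followed by a region 55.2 kb from Cep85l (1359, 1482 and 1073) and one within Pam, a peptide-processing enzyme (1418, 1038 and 1063), both with H3K27ac in both tissues. One 515 kb from Fat1, an atypical cadherin (chr8:44417834-44418963; 1493, 918 and 1102), was under FL and not MC H3K27ac. Regions within Etv6, an ETS repressor (912, 1427 and 1021), and within Mmp16, a membrane metalloproteinase (853, 837 and 1052), had H3K27ac in both. Robo2, a receptor for Slit guidance proteins, held 2 of the 12 best (898, 1405 and 918, and 836, 1392 and 1177), neither under H3K27ac. The rest of the 12 lay nearest to Rab28, Tmem64 and Jcad. Further regions of high rank with H3K27ac in FL and not MC lay 84.5 kb from Col5a2, a fibrillar collagen (813, 912 and 895), and 210 kb from Cd109 (1107, 736 and 818).

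FL-alone regions at promoters were few. They numbered 106 (1.73%, against 9.2% of all regions, 1.9% of MC-alone regions and 58.9% of regions in all 8 lists), over 120 of 32619 promoter windows, 41 of them of protein-coding genes. Of those 41, 15 were under FL and 16 under MC H3K27ac. The median GC content of the 120 windows was 48.2%, against 53.0% for all windows and 62.3% for windows open in all 8 lists. The 22 windows under MC-alone regions had 47.5%, so low GC content was shared with them. The NFI letters TTGGCA was in 28.3% of the 120, against 14.1% of all windows, LEF/TCF in 26.7% against 15.9%, TEAD in 11.7% against 4.32% and AP-1 in 13.3% against 7.85%. SOX (2.5% against 3.68%) and posterior HOX (11.7% against 10.9%) were near the share of all windows. CTCF (7.5% against 10.7%) and T-box (3.33% against 5.87%) were lower. Under MC-alone regions AP-1 was in 22.7% of the 22 windows, above the FL-alone share. The motif shares were not tested, and the sets of windows differ in GC content. At Akr1b8, an aldo-keto reductase, the region at the start (chr6:34353801-34354825) scored 550, 1153 and 536 and had H3K27ac in both tissues. Gbp2 (419, 264 and 297), Rsad2 (413, 441 and 402), Irgm2 (446 and 280 in replicates 2 and 3), Il33 (270, 521 and 364) and Tnfsf10 (400 and 434 in replicates 1 and 2), 5 genes picked after their values were seen and not by a list, also had an FL-alone region at the start. Of these 5, Rsad2 was under FL and not MC H3K27ac, Irgm2 under both, and the others under neither.

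Annotated microRNAs under FL-alone regions numbered 4. The mature sequences with their seeds (bases 2 to 8) in capitals, shown because miR-130a is the best known of them, are from RefSeq.
mmu-miR-130a-3p: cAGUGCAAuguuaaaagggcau
mmu-miR-130a-5p: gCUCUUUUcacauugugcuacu
mmu-miR-3090-5p: gUCUGGGUggggccugagauc
mmu-miR-3090-3p: uCCCAGGUgacacccugacuca
The region over miR-130a (chr2:84740262-84741228) scored 266 and 309 in FL replicates 2 and 3 and had H3K27ac in both tissues. The region over miR-3090 (chr2:133564270-133565204), 1.84 kb from Bmp2 and one of its 7, scored 331 and 479 in replicates 1 and 2 and had H3K27ac in FL and not MC.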

How the data were processed

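Peak lists were used as deposited, on mm10. Per the submitters' processing notes, the authors used Trim Galore, Bowtie2 and SAMtools, calling ATAC-seq peaks by Genrich and CUT&Tag peaks by SEACR; versions and thresholds are not given in the sources used here. The deposited ATAC lists give a peak score, never under 200 and used here to rank peaks within a list, and a -log10 p. The deposited H3K27ac lists give total and highest signal. One list per library and one combined list per group were deposited; combined lists are pooled. Hi-C and 4C samples were not analysed here.

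Peaks that shared 1 base were merged (Python 3.11.15, numpy 2.4.6, pandas 2.3.3, scipy 1.17.1). Overlap means 1 shared base. RefSeq spans of 21631 protein-coding genes (GRCm38.p6) and 32619 promoter windows of coding and noncoding genes were used. Region calling was tested on simulated data with 3000 planted regions, of which all 126 planted FL-alone regions were found. Libraries were compared by exact permutation tests. No genome was given, so promoter windows stood in for region sequences. Named regions followed a rule: the 12 of best worst rank in all 3 FL lists, the best region of up to 30 Hox, limb, joint and cartilage genes, the 8 genes with most regions, the 6 of best rank with H3K27ac in FL and not MC, the 3 densest windows of 100 kb and the 8 best over a gene end; any others were picked once their values were known. The regions and gene lists were chosen with earlier results of these data known. Titles and protocols were followed for the E12.5 libraries, whose description text names another stage and assay. The alternatives tried are given with the closing observations.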

Additional observations from a re-analysis of the deposited data

How the results depend on the processing

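The number of FL-alone regions was 1595 with a peak required in 3 of 3 FL lists and 2833 with the better 50% of each list by -log10 p, and ranged from 2112 to 8667 with 1 ATAC list left out. With the better 50% of the single H3K27ac lists by total signal, the FL minus MC difference turned to 0.0357 points against all regions (exact permutation p = 1.0) and 0.444 points against MC-alone regions (exact permutation p = 0.1); the cause was not tested. No other alternative turned the sign of the 3 single-library differences. In the combined lists 44.9%, 27.8% and 44.1% of FL-alone regions were under FL H3K27ac, and 41.3%, 25.55% and 40.3% under MC, with peaks within 1 kb, the better 50% of each list and equal numbers of ATAC peaks. The FL minus MC difference was 2.25 points with the better 50% of each list and 5.58 for regions in 3 FL lists, and lay between 3.38 and 4.83 with 1 ATAC list left out, alternatives chosen after seeing the data. Regions near a gene end were 5.13% at 2.5 kb and 2.91% from equal numbers of peaks, and those inside genes 42.6% for 3 FL lists. Genes with an FL-alone region were 11 for limb patterning and 7 for joint and BMP genes in 3 FL lists, and 12 to 26 and 7 to 14 with 1 ATAC list left out. Of 396 other values, for single gene lists, 307 stayed within their counting interval or 1.5 times their count and 89 did not. With the replicate block the 3 single-library differences were -0.543, -0.277 and -0.331 points (exact permutation p = 0.25, 0.5 and 0.25). The smallest p that 3 pairs allow in this exact permutation test is 0.25. Same-numbered libraries share a number only (correlations of deviations 0.00577, -0.0013 and 0.00552). Read depth is unknown, so an absent peak does not show closed chromatin.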

Other observations

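Genes with the most FL-alone regions differed in their H3K27ac. Pde4d, a cAMP phosphodiesterase, and Tenm4, a teneurin, had 14 each, of 37 and 56 regions in at least 2 FL lists. At Pde4d 10 of the 14 were under FL H3K27ac, 3 under MC and 7 under FL and not MC, and the strongest scored 900, 1123 and 397 in FL replicates 1 to 3. At Tenm4 the counts were 9, 10 and 0. Macrod2 had 13, of which 11 were under neither, and Wwox 12, of which 6 were under FL and 11 under MC H3K27ac. Trib2, a pseudokinase, had 11 (9 and 8 marked), and Lrig3, a membrane protein, 11 (4 and 3). Sema3a, a secreted guidance protein, had 10 of 20, none under H3K27ac in either tissue, 5 of them in all 3 FL lists. Other guidance genes, chosen after their values were seen, were Robo2 with 9 of 22, Slit3 with 9 of 28 and Slit2 with 8 of 16.

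Clusters of FL-alone regions were of both kinds. In 99.4 kb inside Adamtsl1, a secreted matrix protein related to the ADAMTS proteases, 7 of 14 regions were FL-alone, all 7 under FL H3K27ac and 1 under MC. The strongest scored 617, 774 and 505. In 83.2 kb from beside Ccn3, a matricellular protein, into Enpp2, which makes lysophosphatidic acid, 7 of 12 regions were FL-alone, with 1 under FL H3K27ac and none under MC, and 1 of the 7 in all 3 FL lists. A window of 93.6 kb at Slc14a2, a urea transporter, held 6 of 14, with 3 under FL and 5 under MC H3K27ac. By chromosome the FL-alone share of regions in at least 2 FL lists ran from 8.43% on X and 8.95% on chromosome 7 to 17.1% on chromosome 3.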
